A study of Mus musculus with 6 samples.

Results

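The genes described here are 42 cell cycle and mitosis genes, chosen by their symbols among the 23036 genes measured in mouse liver. They comprise 4 regulators of G1 and of entry into S phase (Ccnd1, Ccne1, Ccne2 and E2f1), 15 genes of S phase and 23 genes of G2 and mitosis (G2/M). All 42 symbols were found in the deposited table. The female mice carried floxed Hkdc1 (HKDC1 fl/fl, here flox) or a liver-specific Hkdc1 knockout (HKDC1 LKO, here LKO). All were 8 weeks old when the western diet began and ate it for 20 weeks, so no mouse on a control diet and no mouse without a floxed allele is in the comparison. The labels do not say which Cre driver was used, which part of Hkdc1 was deleted or if each library is 1 mouse, so p-values measure a spread between libraries that may be technical. Poly-A RNA of whole liver was sequenced in 3 libraries labelled flox and 3 labelled LKO in their genotype field.

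A cell that leaves rest first makes D-type and then E-type cyclins, whose kinases release E2F factors from the retinoblastoma proteins. E2F factors then switch on the genes of DNA replication, among them the MCM helicase and the enzymes that make nucleotides. A later wave, driven by B-MYB, the MuvB complex and FOXM1, switches on the genes of G2 and mitosis. In adult liver most hepatocytes rest outside the cycle and return to it after injury, and bile duct, stellate and immune cells of an injured liver also divide. Bulk RNA does not tell fewer dividing cells from less RNA in each of them.

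The labels of 2 libraries contradict themselves, and the label reading changes the results. The library labelled flox 3 in the genotype field is titled LKO, and the library labelled LKO 1 is titled flox. Class medians and calls are therefore given for the genotype field, for the titles and for the 4 libraries whose labels agree (flox 1, flox 2, LKO 2 and LKO 3). Single genes are given for at least 1 of these readings, which is named, and library names follow the genotype field throughout. Counts of Hkdc1, a hexokinase family gene, were 49, 22 and 1 across the libraries labelled flox 1 to 3 and 10, 1 and 4 across those labelled LKO 1 to 3. The level in the library labelled flox 3 goes against the genotype field, and LKO 1 lay above every library titled LKO. The 95% Poisson intervals of LKO 1 (4.80 to 18.4 counts) and LKO 3 (1.09 to 10.2 counts) overlapped, however. By the titles the groups did not overlap (log2 fold change of LKO against flox -3.51, adjusted p = 0.108 in edgeR). By the genotype field they overlapped (-2.12, adjusted p = 0.571 in edgeR). Every direction drawn below from the genotype field includes flox 3 and LKO 1. Total counts were 16166515 to 17366295 per library. Hepatocyte markers were high in every library, with summed levels of 62941 to 92839 CPM (counts scaled to library size and composition), and none of the 8 was at 0. Adrenal cortex markers, most of which liver should lack, summed to 2589 CPM in LKO 2 and 357 CPM in LKO 3, with none of the 8 at 0. In the other libraries they summed to 78.5 to 114 CPM, with 2 to 5 of the 8 at 0, so that sum came from part of the list. Where leaving out LKO 2 or LKO 3 changed a call, the call or the fold change without that library is given beside the gene.

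At the level of whole classes, the G2/M genes had lower median fold changes than the S phase genes under every reading. The contrast depended on the reading and on the library flox 1. By the titles it was not kept without flox 1 or on the log2(FPKM + 1) scale. By the genotype field the median log2 fold change (LKO against flox) was -0.91 over 22 tested G2/M genes and -0.41 over 15 S phase genes, beside -0.0053 over all 14310 genes tested. By the titles the medians were -0.55 and -0.23, beside 0.0042 over all genes. The 4 libraries whose labels agree gave medians of -1.07 and -0.58, beside 0.0049 over all 14625 genes tested there. The G1 regulators had medians of -0.44, -0.40 and -0.73 in the same order. Bub1, a spindle checkpoint kinase with 32 counts in flox 1 and 7 or 8 in each other library, was the member that missed the filter on low counts.

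Single genes mostly did not pass the test. By the genotype field, edgeR's quasi-likelihood test called 0 of 41 members lower and 0 higher at an adjusted p under 0.05, and it called 0% of all genes lower and 0% higher. At an unadjusted p under 0.05, 17 members were lower and 0 higher, beside 4.76% of all genes lower and 4.1% higher. DESeq2 called 1 member by the genotype field, Mki67. By the titles edgeR called 1 member, Haus8, lower and 0 higher, beside 0.3% of all genes lower and 0.0559% higher. In the 4 libraries whose labels agree Haus8 was again the 1 member called lower, with 0 called higher, beside 0.492% and 0.13% of all genes. The readings share libraries, so their counts are not independent of each other.

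Within the classes, 12 of 22 G2/M genes, 4 of 15 S phase genes and 1 of 4 G1 regulators had a lower level at an unadjusted p under 0.05 by the genotype field. Of all genes, 4.76% were lower at that threshold. By the titles these counts were 2, 3 and 0, beside 8.59% of all genes lower, and 1 S phase gene was higher, beside 5.31% of all genes higher. With agreeing labels the counts were 9, 6 and 2, beside 9.88% of all genes lower, and the same 1 S phase gene, Tk1, was higher, beside 6.74%. The lower S phase genes were in part different ones: Mcm3 and Uhrf1 by both the genotype field and the titles, Mcm4 and Rrm2 by the first alone, and Mcm2 by the second alone. The G2/M count was 12 by the first, beside 4.76% of all genes lower, and 2 by the second, beside 8.59%.

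Complete separation of libraries favoured G2/M over S phase genes by the genotype field and with agreeing labels, but not by the titles. Grouped by genotype field, all 3 flox libraries lay above all 3 LKO libraries for 17 of 22 G2/M genes and 4 of 15 S phase genes, beside 6.74% of all genes. No member had the opposite order, beside 7.76% of all genes. By the titles the groups were apart in the lower direction for 3 G2/M and 3 S phase genes, beside 10.6% of all genes, and in the higher direction for Tk1, beside 8.43%. With agreeing labels, 20 G2/M and 10 S phase genes were apart with LKO lower, beside 25.3% of all genes, and Tk1 with LKO higher, beside 24%.

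**Figure D1:**
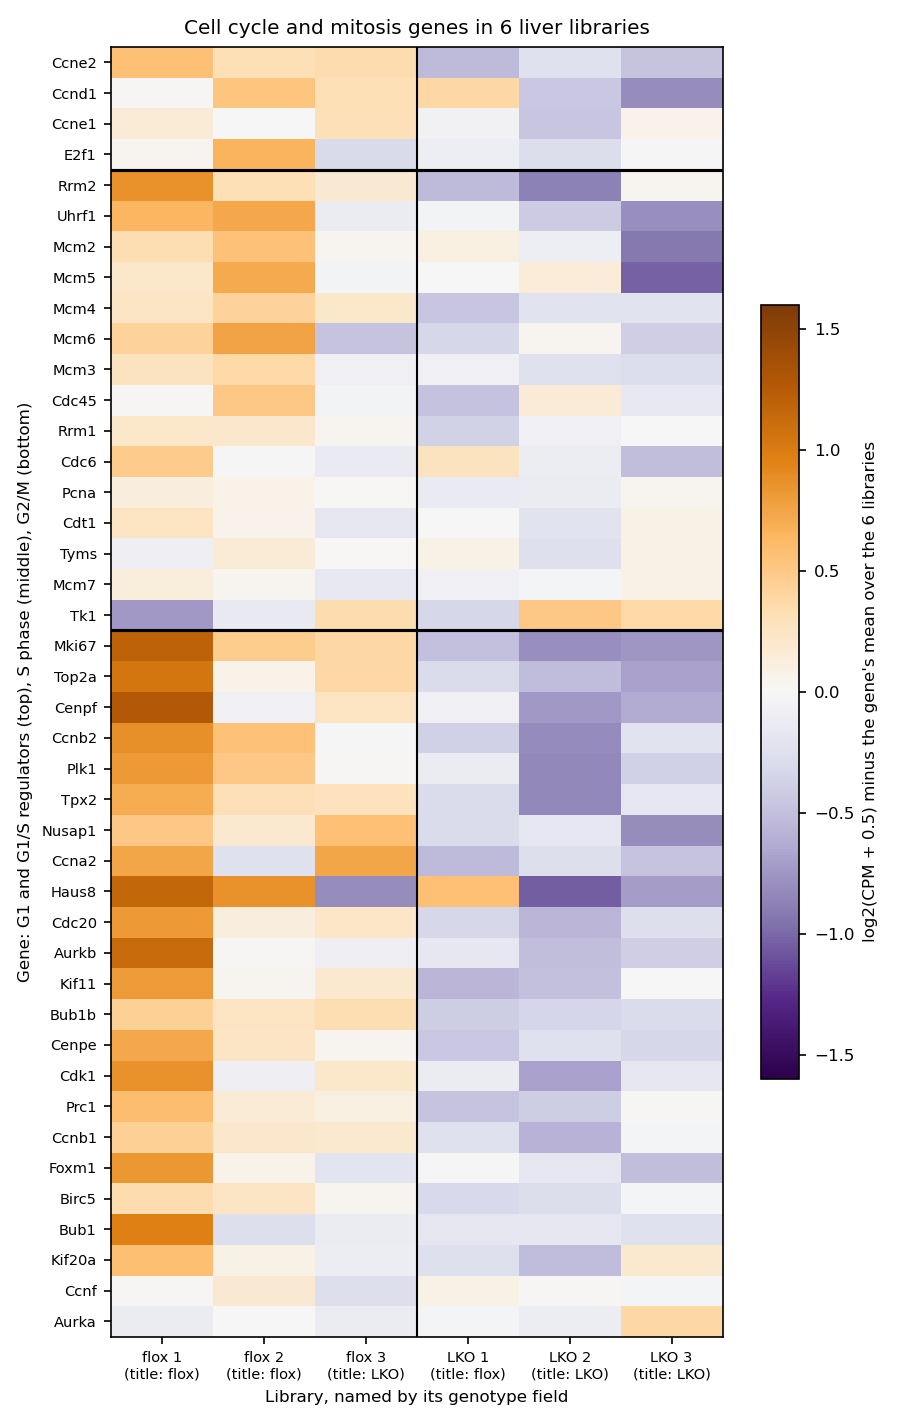
Levels of the 42 genes in each library (columns, with the title's group in brackets) as log2(CPM + 0.5) minus the gene's mean over the 6 libraries. Rows are genes, ordered within each class by the difference between the genotype-field groups; flox 1 is the highest library for 20 of the 23 G2/M genes, and Haus8 and Tk1 follow the titles.

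The library flox 1 carried much of the G2/M signal. It held the highest level of 20 of 23 G2/M genes (87.0%), beside 26.6% of all genes tested. Among the 15 S phase genes the highest library was flox 2 for 8, flox 1 for 6 and LKO 2 for 1. The lowest library was LKO 2 for 11 of the 23 G2/M genes (47.8%), beside 15.0% of all genes.

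Per library, the median deviation of the G2/M genes from their own means (log2 scale) was 0.81, 0.15 and 0.11 across flox 1 to 3 and -0.29, -0.51 and -0.26 across LKO 1 to 3. All 3 flox libraries lay above all 3 LKO libraries, and flox 3 lay beside flox 2 and apart from LKO 2 and LKO 3, whose title it shares. For the S phase genes the medians were 0.25, 0.32 and -0.04 across flox 1 to 3 and -0.07, -0.10 and -0.16 across LKO 1 to 3. Here flox 1 and flox 2 stood above a close set of the other 4 libraries. The G2/M median minus the S phase median was 0.56, -0.16 and 0.15 in the flox libraries and -0.22, -0.40 and -0.10 in the LKO libraries, so the groups overlapped, with flox 2 between the LKO libraries.

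**Figure D2:**
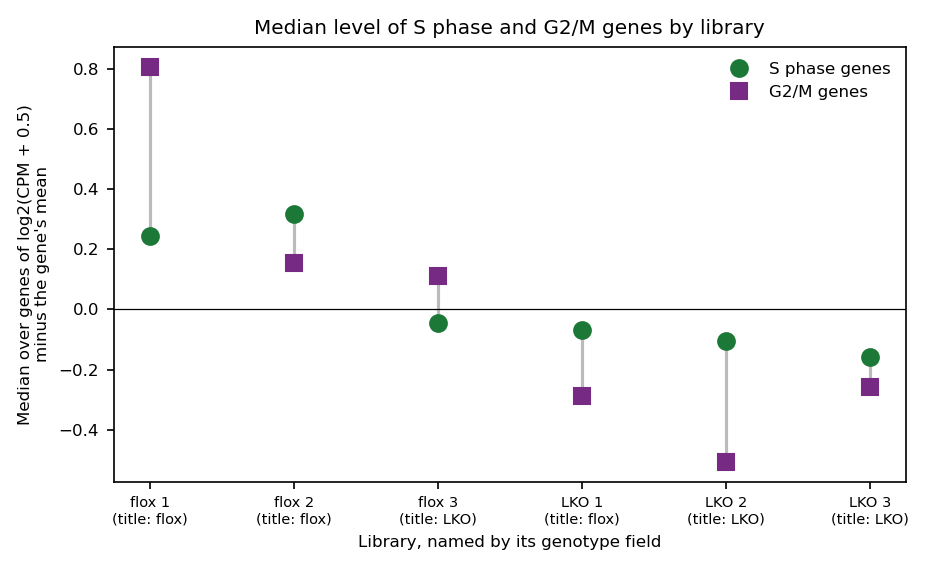
Median deviation of the 15 S phase genes (circles) and the 23 G2/M genes (squares) from their means over the 6 libraries, on the log2(CPM + 0.5) scale, for each library. The G2/M median is 0.81 in flox 1 and -0.51 in LKO 2, while the S phase median spans 0.32 to -0.16.

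Leaving out flox 1 changed the class contrast. By the titles the G2/M median log2 fold change was -0.12 without flox 1 and the difference between the G2/M and S phase medians was 0.01, against -0.32 with it. On the log2(FPKM + 1) scale, which understates the change of low genes, the difference by the titles was 0.02. On log2(FPKM + 0.1) it was -0.15. By the genotype field the G2/M median was -0.66 without flox 1 and the difference was -0.28, against -0.50 with it. With agreeing labels the difference was -0.07 without flox 1, against -0.49 with it. Other libraries moved the difference as well, by the titles to -0.08 without LKO 2, -0.18 without LKO 3 and -0.49 without flox 3, by the genotype field to -0.75 without flox 2, and with agreeing labels to -0.96 without flox 2 and -0.81 without LKO 3. The S phase median by the titles was -0.13 without flox 1, -0.35 without flox 3 and -0.41 without LKO 1, and the G2/M median was -0.84 without flox 3. Without LKO 2, which held the most adrenal RNA, the G2/M medians were -0.83 by the genotype field, -0.30 by the titles and -1.004 by the agreeing labels.

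Per length, the summed FPKM level of the 23 G2/M genes was 31.9, 20.0 and 15.1 across flox 1 to 3 and 13.9, 10.2 and 11.8 across LKO 1 to 3. The summed FPKM level of the 15 S phase genes was 48.5, 45.5 and 37.8 across flox 1 to 3 and 32.9, 39.0 and 36.3 across LKO 1 to 3. The G2/M sums separated the genotype-field groups, whereas the S phase sum of LKO 2 exceeded that of flox 3. Tk1 was at 8.90 in flox 3 and 10.7 in LKO 2. Without Tk1 the S phase FPKM sums separated these groups as well. The overlap also depended on the scale, since the S phase sums in CPM separated the groups with Tk1 included. They were 172, 190 and 168 CPM across flox 1 to 3 and 141, 167 and 160 CPM across LKO 1 to 3. Among single genes the median FPKM level over the 6 libraries ran from 0.0986 for Cenpf to 21.5 for Ccnd1, with Pcna at 8.95, Tk1 at 7.81 and Haus8 at 2.56, so most mitotic genes were measured at low levels.

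Among the G1 regulators, Ccnd1 (cyclin D1, the kinase partner that carries growth signals into the cycle) was the most abundant member. Its level was 88.0, 125 and 109 CPM in flox 1 to 3 and 113, 63.4 and 49.4 CPM in LKO 1 to 3. LKO 2 and LKO 3 were low, and LKO 1 lay among the flox libraries. The log2 fold change was -0.51 (SE 0.30, adjusted p = 0.605 in edgeR) by the genotype field, -0.56 (SE 0.28, adjusted p = 0.427 in edgeR) by the titles and -0.91 (SE 0.22, adjusted p = 0.138 in edgeR) in the 4 libraries whose labels agree. DESeq2 called it there (adjusted p = 0.00972). With 1 of those 4 libraries left out, the log2 fold change ran from -1.15 (without flox 1) to -0.64 (without flox 2). It was -1.10 without LKO 2, which leaves LKO 3 as the lone LKO library. Ccnd1 overlaps LTO1 on the other strand by 1771 bases. LTO1 ran from 14.3 to 19.1 CPM over the libraries.

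Ccne2, an E-type cyclin that drives entry into S phase, had another pattern. Its level was 3.12, 2.53 and 2.59 CPM in flox 1 to 3 and 1.19, 1.57 and 1.27 CPM in LKO 1 to 3, so the genotype-field groups did not overlap. The log2 fold change was -1.03 (SE 0.28, adjusted p = 0.554 in edgeR) by the genotype field and -0.34 (SE 0.44, adjusted p = 0.787 in edgeR) by the titles. Ccne2 overlaps Ints8 on the other strand by 5622 bases, and Ints8 ran from 13.5 to 19.5 CPM over the libraries. The part of Ints8 reads in the Ccne2 counts was not tested. Ccne1 (1.09 to 2.20 CPM) and E2f1 (4.79 to 9.82 CPM), an activating E2F factor, overlapped between the groups by both the genotype field and the titles. E2f1 was highest in flox 2.

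The 6 MCM genes encode the ring of the replicative helicase, and they did not move as a unit. Mcm4 was 9.26, 10.5 and 9.07 CPM in flox 1 to 3 and 5.52, 6.59 and 6.60 CPM in LKO 1 to 3, with the groups apart by the genotype field (log2 fold change -0.62, SE 0.16, adjusted p = 0.554 in edgeR). Mcm3 was 12.1, 13.0 and 9.46 CPM in flox 1 to 3 and 9.45, 8.40 and 8.05 CPM in LKO 1 to 3, with flox 3 and LKO 1 almost equal. Mcm6 was 14.9, 19.0 and 7.84 CPM in flox 1 to 3 and 8.67, 11.4 and 8.31 CPM in LKO 1 to 3. For Mcm6, flox 1 and flox 2 stood above the other 4 libraries, with flox 3 the lowest of all.

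Mcm2 was 11.0, 13.0 and 8.87 CPM in flox 1 to 3 and 9.39, 8.10 and 4.38 CPM in LKO 1 to 3. Mcm5 was 6.71, 9.70 and 5.51 CPM in flox 1 to 3 and 5.70, 6.34 and 2.54 CPM in LKO 1 to 3, lowest in LKO 3. Mcm7 was nearly level, at 20.2, 18.8 and 16.5 CPM in flox 1 to 3 and 17.5, 17.9 and 19.3 CPM in LKO 1 to 3. The log2 fold changes of the 6 genes ran from -0.62 (Mcm4) to -0.02 (Mcm7) by the genotype field and from -0.65 (Mcm2) to -0.07 (Mcm7) by the titles, and none passed edgeR's test in any reading with all of its libraries. With agreeing labels and without LKO 2, the log2 fold changes were -1.44 (Mcm2), -1.68 (Mcm5) and -1.02 (Mcm6). LKO 3 is the lone LKO library there and shows no spread within its arm, so calls of that fit are not given here. The direction of Mcm7 turned to 0.05 without flox 1 by the genotype field.

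Of the genes for nucleotide synthesis, Tk1 went against the class. Tk1 encodes thymidine kinase 1, which salvages thymidine for DNA synthesis. Its level was 22.8, 34.9 and 48.9 CPM in flox 1 to 3 and 30.6, 55.2 and 49.97 CPM in LKO 1 to 3. The 3 libraries titled LKO lay above the 3 titled flox, with no overlap. The log2 fold change was 0.80 by the titles (SE 0.16, adjusted p = 0.0927 in edgeR), 0.87 in the 4 libraries whose labels agree (SE 0.22, adjusted p = 0.141 in edgeR) and 0.35 by the genotype field (SE 0.31, adjusted p = 0.712 in edgeR). DESeq2 called it by the titles (adjusted p = 0.00122), and edgeR called it there with no filter on low counts (adjusted p = 0.0320). Its adjusted p over all alternatives by the titles ran from 0.00122 to 0.293. With agreeing labels its log2 fold change was 0.81 without LKO 2, 0.94 without LKO 3, 0.59 without flox 1 and 1.20 without flox 2.

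Tk1 overlaps Afmid, a gene of tryptophan breakdown on the other strand, by 169 bases at their 5' ends. Afmid was 27.8, 41.6 and 52.9 CPM in flox 1 to 3 and 38.3, 51.4 and 47.1 CPM in LKO 1 to 3, so the 3 libraries titled LKO lay above the 3 titled flox, as for Tk1 (log2 fold change by the titles 0.49, adjusted p = 0.208 in edgeR). The strand setting of the counting is not given, and the part of Afmid reads in the Tk1 counts was not tested. Hepatocyte marker sums moved the same way, at 62941, 71456 and 92839 CPM in flox 1 to 3 and 74803, 85715 and 90090 CPM in LKO 1 to 3, and their part in the Tk1 values was not tested.

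Rrm2, the S phase subunit of ribonucleotide reductase, had the order of libraries seen for the mitotic genes. Its level was 12.5, 8.46 and 7.64 CPM in flox 1 to 3 and 4.46, 3.44 and 6.91 CPM in LKO 1 to 3, with all flox libraries above all LKO libraries. The log2 fold change was -0.95 by the genotype field (SE 0.31, adjusted p = 0.554 in edgeR) and -0.51 by the titles (SE 0.41, adjusted p = 0.649 in edgeR). With agreeing labels it was -1.02 (SE 0.39, adjusted p = 0.272 in edgeR), and -1.603 without LKO 3, which leaves LKO 2 as the lone LKO library. Its partner Rrm1 had log2 fold changes of -0.31 and -0.06, and Tyms (thymidylate synthase) of -0.05 and -0.11. Pcna, the sliding clamp of the DNA polymerases, stayed between 20.4 and 24.4 CPM in all 6 libraries.

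Uhrf1, which carries DNA methylation to newly replicated strands, was 5.00, 5.31 and 2.72 CPM in flox 1 to 3 and 2.91, 2.11 and 1.52 CPM in LKO 1 to 3. The 3 libraries titled flox lay above the 3 titled LKO. The log2 fold change was -0.99 (SE 0.36, adjusted p = 0.554 in edgeR) by the genotype field, -1.05 (SE 0.33, adjusted p = 0.214 in edgeR) by the titles and -1.49 (SE 0.33, adjusted p = 0.125 in edgeR) in the 4 libraries whose labels agree. DESeq2 called it in the last of these (adjusted p = 0.0452). The licensing factors Cdc6 and Cdt1 and the helicase activator Cdc45 ran from 0.380 to 1.25 CPM, from 4.95 to 7.08 CPM and from 1.07 to 2.60 CPM, and overlapped between the genotype-field groups. By the titles Cdc6 was apart, with a log2 fold change of -0.82 (SE 0.42, adjusted p = 0.437 in edgeR).

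Mki67, the Ki-67 gene used to mark dividing cells, had the largest genotype-field fold change of the members. Its level was 21.9, 13.0 and 12.2 CPM in flox 1 to 3 and 6.42, 5.14 and 5.26 CPM in LKO 1 to 3. Flox 3 was close to flox 2, LKO 1 was close to the other LKO libraries, and the groups by genotype field did not overlap. The level was 2.80-fold lower in LKO by the genotype field (log2 fold change -1.49, SE 0.26), where edgeR's adjusted p was 0.554 and DESeq2's was 0.000809. By the titles the log2 fold change was -0.88 (SE 0.48, adjusted p = 0.472 in edgeR), and -0.36 without flox 1. With agreeing labels it was -1.74 (SE 0.29, adjusted p = 0.0699 in edgeR, DESeq2 adjusted p = 0.000137). With 1 of those 4 libraries left out, the log2 fold change ran from -2.07 (without flox 2) to -1.33 (without flox 1). It was -1.72 without LKO 2 and -1.76 without LKO 3, and each of these fits has a lone LKO library. Without flox 1 the genotype-field value was -1.17.

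Top2a, the topoisomerase that untangles chromosomes before they part, was 12.8, 6.24 and 7.90 CPM in flox 1 to 3 and 4.75, 3.99 and 3.49 CPM in LKO 1 to 3. All flox libraries lay above all LKO libraries, with flox 1 far the highest. The log2 fold change was -1.14 (SE 0.30, adjusted p = 0.554 in edgeR) by the genotype field and -0.64 (SE 0.44, adjusted p = 0.578 in edgeR) by the titles, the latter -0.10 without flox 1. Bub1b, the checkpoint protein BubR1, was more even within each group, at 3.59, 3.09 and 3.30 CPM in flox 1 to 3 and 1.78, 1.87 and 1.97 CPM in LKO 1 to 3. Its log2 fold change was -0.83 (SE 0.24, adjusted p = 0.554 in edgeR) by the genotype field and -0.25 (SE 0.37, adjusted p = 0.815 in edgeR) by the titles.

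The engine of mitosis is cyclin B with the kinase Cdk1. Cdk1 was 4.68, 2.22 and 2.85 CPM in flox 1 to 3 and 2.14, 1.27 and 2.03 CPM in LKO 1 to 3. Ccnb1 (cyclin B1) was 1.25, 0.989 and 0.972 CPM in flox 1 to 3 and 0.594, 0.363 and 0.761 CPM in LKO 1 to 3. Both were apart by the genotype field, with log2 fold changes of -0.85 (SE 0.37) and -0.90 (SE 0.40), and overlapped by the titles, at -0.56 (SE 0.43) and -0.44 (SE 0.49).

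Plk1, the polo-like kinase of mitotic entry, was 2.97, 2.29 and 1.49 CPM in flox 1 to 3 and 1.31, 0.604 and 1.01 CPM in LKO 1 to 3. It was highest in flox 1 and flox 2, and its log2 fold change was -1.20 (SE 0.41) by the genotype field and -1.08 (SE 0.45) by the titles. Foxm1, the transcription factor of the G2/M wave, was 3.17, 1.67 and 1.30 CPM in flox 1 to 3 and 1.54, 1.33 and 0.951 CPM in LKO 1 to 3. For Foxm1 the titles separated the libraries and the genotype field did not, with log2 fold changes of -0.84 (SE 0.39) and -0.69 (SE 0.42).

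The other mitotic genes gave the same order. The genotype-field groups were apart, with LKO lower, for the cyclins Ccna2 and Ccnb2, the kinase Aurkb and its partner Birc5, the anaphase activator Cdc20, the kinetochore proteins Cenpe and Cenpf, the motor Kif11 and the spindle proteins Nusap1, Prc1 and Tpx2. Their log2 fold changes by the genotype field ran from -1.37 (Cenpf) to -0.50 (Birc5). Grouped by the titles, all of these genes overlapped, with -1.06 for Cenpf and -0.23 for Birc5. Prc1 shares 21810 bases with Rccd1 on the other strand, which ran from 2.66 to 3.44 CPM over the libraries. The part of Rccd1 reads in the Prc1 counts was not tested. By the titles the log2 fold change of Ccna2 was -0.004, since its level of 3.89 CPM in flox 3 almost equalled the 3.90 CPM of flox 1. Kif20a, a kinesin of cytokinesis, overlapped between the groups at -0.51. Ccnf (cyclin F) at 0.03 and Aurka (the spindle pole kinase Aurora A) at 0.20 were the G2/M genes above 0 by the genotype field. Aurka was highest in LKO 3, at 4.76 CPM beside 3.23 to 3.52 CPM elsewhere.

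**Figure D3:**
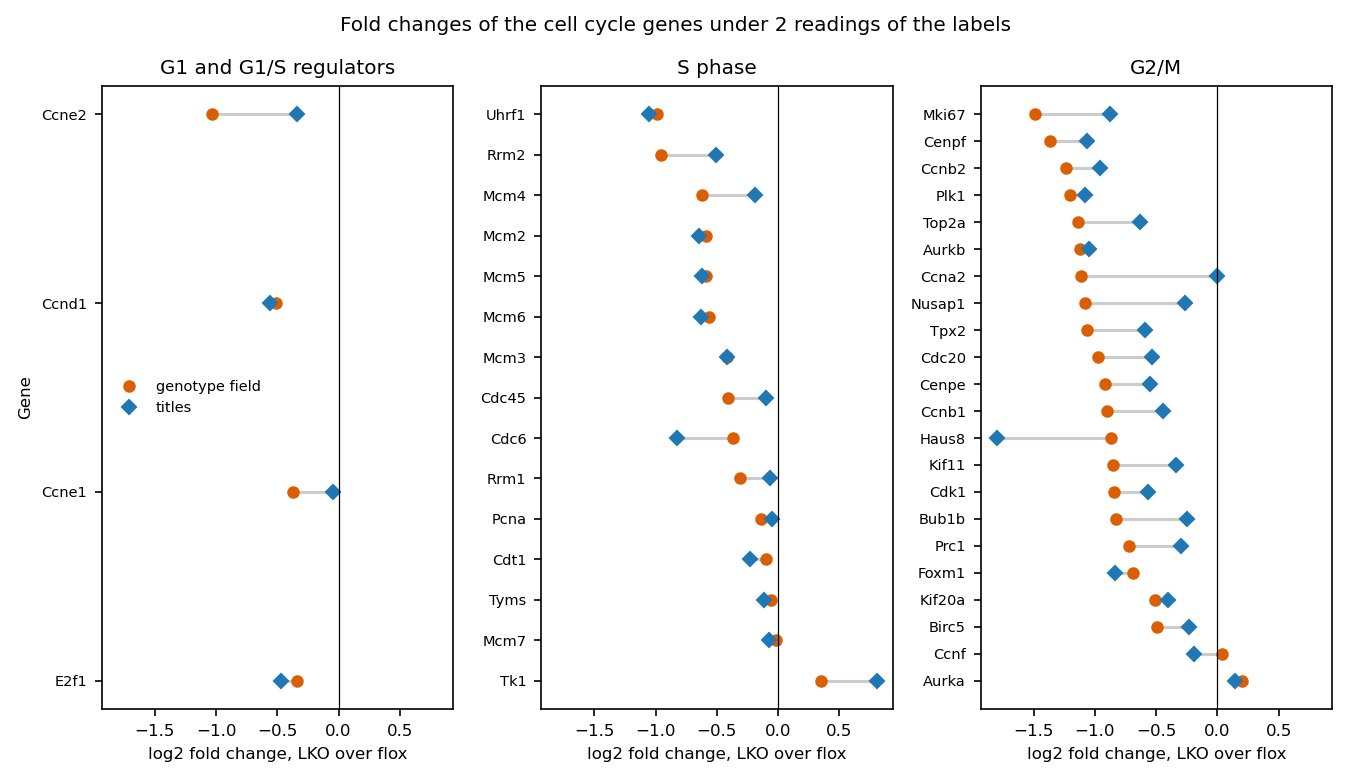
Log2 fold change (LKO over flox, edgeR) of the 41 tested genes by the genotype field (circles) and by the titles (diamonds), joined by a line for each gene, in 3 panels by class. All G2/M genes lie further below 0 by the genotype field except Haus8, Foxm1, Ccnf and Aurka, whereas the S phase genes lie on both sides of their title values and Tk1 lies above 0.

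Haus8 was the gene that passed the test, and it followed the titles. It encodes a subunit of augmin (the HAUS complex), which starts new microtubules from the sides of spindle microtubules. Haus8 (ENSMUSG00000035439, GRCm39 chromosome 8, 71701205 to 71725578, minus strand) had levels of 30.4, 24.8 and 7.45 CPM in flox 1 to 3 and 20.1, 6.22 and 7.93 CPM in LKO 1 to 3. The 3 libraries titled flox lay at 20.1 CPM or above and the 3 titled LKO at 7.93 CPM or below. By the titles Haus8 fell 3.49-fold in LKO (log2 fold change -1.80, SE 0.18, adjusted p = 0.0218 in edgeR). In the 4 libraries whose labels agree the log2 fold change was -1.96 (SE 0.21, adjusted p = 0.0275 in edgeR), and by the genotype field it was -0.87 (SE 0.58, adjusted p = 0.634 in edgeR).

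The call by the titles did not hold in edgeR without flox 2 (adjusted p = 0.161), LKO 2 (adjusted p = 0.0531) or LKO 3 (adjusted p = 0.113), while the log2 fold change stayed between -1.93 and -1.63 when any of the 6 libraries was left out. Over all alternatives its adjusted p by the titles ran from 1.06e-12 to 0.161. In the 4 libraries whose labels agree it did not hold without flox 1 (adjusted p = 0.135) or flox 2 (adjusted p = 0.0537). None of the other 7 HAUS subunit genes was called by edgeR under any reading. Those with the lowest unadjusted p by the titles were Haus4, with a log2 fold change of 0.36 (adjusted p = 0.348 in edgeR), and Haus2, at -0.28 (adjusted p = 0.442 in edgeR). For the genotype field they were Haus5 at -0.57 and Haus6 at -0.31.

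Haus8 overlaps Myo9b, a myosin gene on the other strand, by 221 bases at their 5' ends. Myo9b was 120, 110 and 59.1 CPM in flox 1 to 3 and 99.1, 59.9 and 56.4 CPM in LKO 1 to 3, the same split as Haus8. Its log2 fold change by the titles was -0.91 (adjusted p = 0.0297 in edgeR), so Myo9b passed the test there as well. Reads of the overlap cannot be told apart without the strand setting, and their part in the Haus8 counts was not tested. Bile duct markers split in the same way, with summed levels of 481, 362 and 79.9 CPM in flox 1 to 3 and 170, 34.0 and 61.4 CPM in LKO 1 to 3, and their part in the Haus8 values was not tested.

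**Figure D4:**
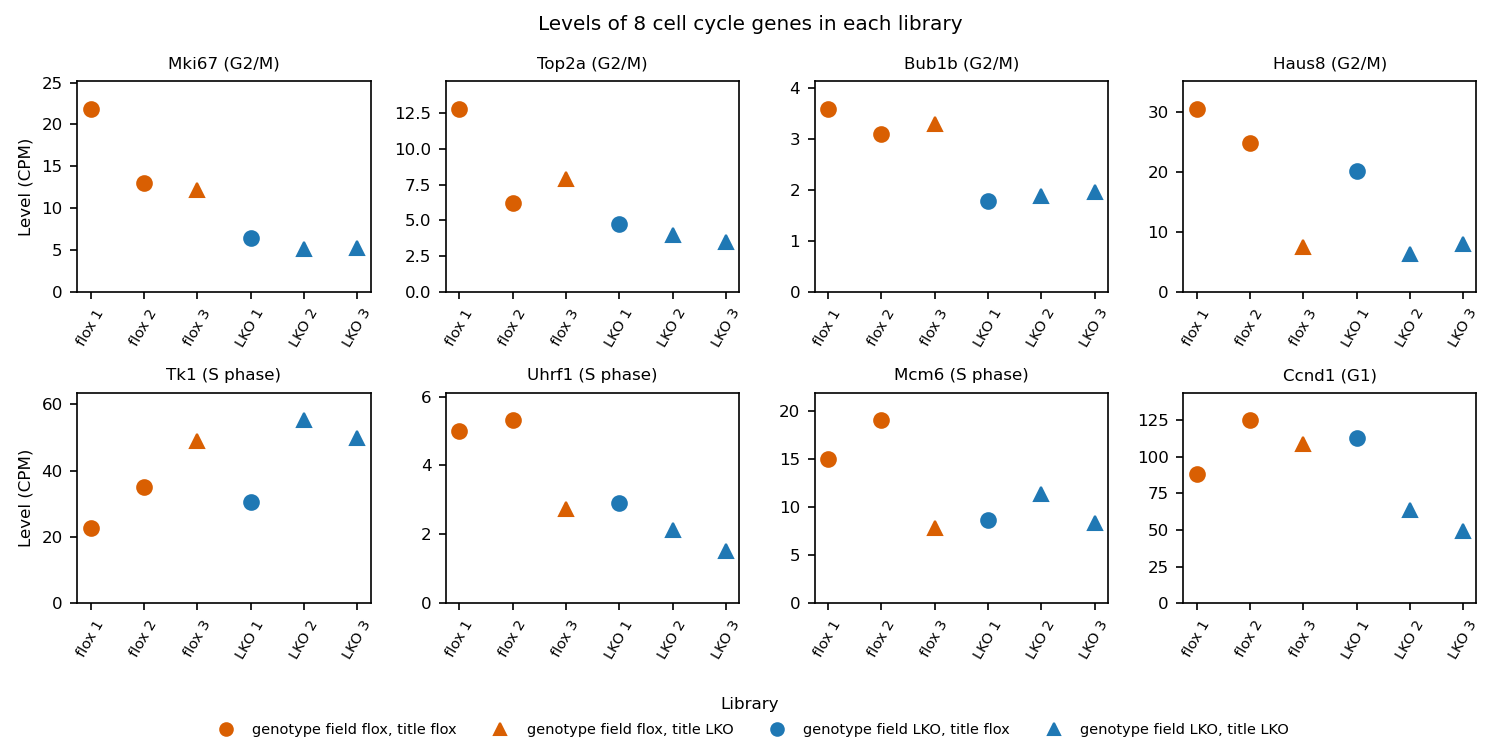
CPM of 8 genes in each library, with the genotype field shown by colour and the title by shape. Mki67, Top2a and Bub1b separate by colour, Haus8, Tk1 and Uhrf1 separate by shape, and Mcm6 and Ccnd1 separate by neither.

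The promoters of the members differ between the classes in the letters that the cell cycle factors are known to read. RefSeq promoters (250 bases before to 50 after the start site, GRCm38.p6, not the GRCm39 build of the counts) were matched for 34 of 42 members, as 37 promoters. The cell cycle homology region (CHR, TTTGAA), which MuvB binds, lay in 13 of 19 G2/M promoters (68.4%) and 2 of 16 S phase promoters (12.5%), beside 17.9% of all 32851 promoters. The CCAAT box (CCAAT), read by NF-Y, lay in 84.2% of G2/M and 75.0% of S phase promoters, beside 37.4% of all. Each G2/M promoter with a CHR also held a CCAAT box, a pair found in 6.95% of all promoters. E2F sites (TTTCCCGC, TTTCGCGC, TTTGCCGC or TTTGGCGC) lay in 43.8% of S phase and 5.26% of G2/M promoters, beside 2.27% of all. All motifs were searched on both strands, and E2F sites that overlap each other count as 1 promoter. Shares are descriptions, and no match says only that these letters are not in the window.

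Promoters are shown for the mitotic genes Mki67 and Ccnb2, whose levels separated by the genotype field, for the S phase gene Mcm6, and for Haus8 and Tk1, which followed the titles. Each reads 5′ to 3′ along the gene's own strand (minus for all 5), with CCAAT boxes, CHRs and E2F sites on either strand in capitals. Mki67 (chr7:135716330-135716629) holds CHRs 116 and 98 bases before the start site, Ccnb2 (chr9:70421505-70421804) holds 1 on each side of it, and Mcm6 (chr1:128359656-128359955) holds E2F sites and no CHR. Haus8 (chr8:71272541-71272840) and Tk1 (chr11:117825965-117826264) hold none of these motifs, so both are in lower case throughout.
Mki67: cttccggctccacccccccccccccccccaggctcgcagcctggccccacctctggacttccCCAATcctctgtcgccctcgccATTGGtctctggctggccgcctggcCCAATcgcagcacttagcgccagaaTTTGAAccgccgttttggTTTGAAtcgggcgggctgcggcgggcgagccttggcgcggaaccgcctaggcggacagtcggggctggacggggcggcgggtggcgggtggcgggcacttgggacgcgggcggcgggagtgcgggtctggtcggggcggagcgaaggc
Ccnb2: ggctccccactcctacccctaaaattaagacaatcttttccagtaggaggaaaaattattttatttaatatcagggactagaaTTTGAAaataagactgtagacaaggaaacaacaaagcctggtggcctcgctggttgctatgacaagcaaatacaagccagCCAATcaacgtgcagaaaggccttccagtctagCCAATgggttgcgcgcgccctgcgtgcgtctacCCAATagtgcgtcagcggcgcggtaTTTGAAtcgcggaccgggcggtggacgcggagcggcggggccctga
Mcm6: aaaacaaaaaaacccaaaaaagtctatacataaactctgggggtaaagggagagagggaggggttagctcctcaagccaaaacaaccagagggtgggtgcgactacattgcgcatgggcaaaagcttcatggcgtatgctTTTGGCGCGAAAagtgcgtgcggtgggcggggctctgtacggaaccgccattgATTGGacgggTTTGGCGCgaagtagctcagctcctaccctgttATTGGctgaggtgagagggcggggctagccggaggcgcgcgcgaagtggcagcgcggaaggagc
Haus8: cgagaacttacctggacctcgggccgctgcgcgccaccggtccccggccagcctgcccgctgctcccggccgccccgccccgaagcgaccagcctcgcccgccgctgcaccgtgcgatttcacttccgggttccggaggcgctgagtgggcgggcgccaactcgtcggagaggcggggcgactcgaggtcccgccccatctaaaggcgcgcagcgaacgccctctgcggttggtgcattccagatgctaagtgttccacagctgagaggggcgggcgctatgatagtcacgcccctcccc
Tk1: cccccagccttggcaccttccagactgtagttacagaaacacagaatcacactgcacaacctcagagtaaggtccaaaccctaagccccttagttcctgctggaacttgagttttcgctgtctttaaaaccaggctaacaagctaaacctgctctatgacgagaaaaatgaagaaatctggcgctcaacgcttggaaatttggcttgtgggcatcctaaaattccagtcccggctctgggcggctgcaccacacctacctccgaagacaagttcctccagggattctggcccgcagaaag

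Genes of the same processes outside the 42 gave the same contrast of medians between replication and mitosis, which was not recomputed without flox 1. Of 27 tested spindle and kinetochore genes, 24 had a log2 fold change below 0 by the genotype field, with a median of -0.77, and the median was -0.45 by the titles. Of 23 tested origin and fork genes, 17 lay below 0 by either reading, with medians of -0.18 and -0.16. edgeR called 0 genes of either list under any reading, with 8 spindle and 2 origin genes lower at an unadjusted p under 0.05 by the genotype field, beside 4.76% of all genes. By the titles these counts were 3 and 1, beside 8.59% of all genes. The median deviation of the spindle list was 0.63, 0.18 and 0.14 across flox 1 to 3 and -0.31, -0.27 and -0.20 across LKO 1 to 3. Over all genes tested, 50.9% lay below 0 by the genotype field and 49.3% by the titles. Hmmr, a spindle protein, was 3.49, 1.67 and 0.907 CPM in flox 1 to 3 and 0.416, 0.544 and 0.507 CPM in LKO 1 to 3. Ect2, which starts cytokinesis, was 3.59, 3.52 and 3.24 CPM in flox 1 to 3 and 1.90, 1.21 and 1.84 CPM in LKO 1 to 3. Both were lowest in the LKO libraries with no overlap, at log2 fold changes of -2.04 and -1.06 (adjusted p = 0.554 each in edgeR).

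Other genes of these lists had their lowest unadjusted p by the titles. Spc24, a kinetochore gene, had a log2 fold change of -0.79 (adjusted p = 0.198 in edgeR), and Gins2, of the replication fork, of -1.05 (adjusted p = 0.285 in edgeR). Mcm10, a fork factor, had a log2 fold change of 0.48 (adjusted p = 0.317 in edgeR), with 21.3, 25.6 and 41.0 CPM in flox 1 to 3 and 35.9, 40.7 and 33.5 CPM in LKO 1 to 3, so its groups overlapped by the titles as well.

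The brakes and growth signals of the cycle also yielded no call by edgeR. Of 15 tested inhibitors and pocket protein genes, 3 were lower and 1 higher at an unadjusted p under 0.05 by the genotype field, beside 4.76% of all genes lower and 4.1% higher. Wee1, the kinase that holds back Cdk1, was 24.6, 28.6 and 34.0 CPM in flox 1 to 3 and 18.2, 13.9 and 19.3 CPM in LKO 1 to 3 (log2 fold change -0.76, SE 0.17, adjusted p = 0.554 in edgeR). Cdkn2a, which encodes p16 and p19ARF, was 0.677, 0.124 and 1.04 CPM in flox 1 to 3 and 0.416, 3.02 and 1.90 CPM in LKO 1 to 3. It was above the other libraries in the 3 titled LKO, with a log2 fold change by the titles of 2.25 (SE 0.61, adjusted p = 0.165 in edgeR). These levels are low, and that of flox 2 lies below the 0.185 CPM to which 3 counts correspond there. Of 12 tested D-type and G1 cyclin-CDK genes, 1 was lower (Cdk6, -0.39) and 1 higher (Ccnd3, 0.33) at that threshold, beside the same shares of all genes. Of 10 tested growth signal genes, 1 was lower and 2 were higher (Wnt2 at 0.95 and Fgfr4 at 0.46) at an unadjusted p under 0.05 by the genotype field, and 7 lay above 0. The lower gene was Hgf, the hepatocyte growth factor, at 14.3, 13.0 and 11.5 CPM in flox 1 to 3 and 8.97, 9.004 and 8.12 CPM in LKO 1 to 3 (log2 fold change -0.57, SE 0.14, adjusted p = 0.554 in edgeR). Egfr had a log2 fold change of 0.71 by the titles (SE 0.17, adjusted p = 0.136 in edgeR).

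Markers of other liver cells stood high in the same library as the mitotic genes. Stellate and fibroblast markers summed to 1143, 828 and 443 CPM in flox 1 to 3 and 495, 392 and 350 CPM in LKO 1 to 3, with none of 9 at 0. Neutrophil markers summed to 107, 24.1 and 24.6 CPM in flox 1 to 3 and 24.4, 45.7 and 14.2 CPM in LKO 1 to 3. T, B and NK cell markers summed to 28.8, 13.3 and 15.0 CPM in flox 1 to 3 and 18.1, 12.9 and 9.20 CPM in LKO 1 to 3. Each of these sums was highest in flox 1, as was the bile duct sum, and the neutrophil marker Ly6g was at 0 in flox 2 and LKO 1. The macrophage and Kupffer sum was also highest there, at 1482 CPM beside 755 to 1115 CPM elsewhere. Hepatocyte markers were lowest in flox 1. The part of these cells in the G2/M values was not tested.

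Some markers passed edgeR's test. Trem2, a macrophage receptor, had a log2 fold change of -2.91 by the titles (adjusted p = 0.0438 in edgeR) and -3.27 in the 4 libraries whose labels agree (adjusted p = 0.0455 in edgeR). The macrophage and Kupffer list did not move one way, with 5 of 10 genes above 0 under each reading and a median of -0.04 by the titles. In those 4 libraries the stellate and fibroblast genes Col1a1 (-3.29, adjusted p = 0.0159 in edgeR), Col3a1 (-2.23, adjusted p = 0.0201 in edgeR) and Lum (-2.89, adjusted p = 0.0481 in edgeR) and the bile duct gene Spp1 (-3.27, adjusted p = 0.0291 in edgeR) were lower as well. Endothelial sums (307 to 440 CPM) were lowest in flox 1, and erythroid sums (185 to 795 CPM) were highest in LKO 3 and flox 3. Adipocyte markers summed to 127 CPM in LKO 2 and to 16.4 to 28.2 CPM elsewhere.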

How the data were processed

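Liver mRNA was measured by RNA-seq in 6 libraries (poly-A selection and an NEBNext Ultra kit, per the labels' protocols). The authors deposited 1 table of whole-number counts per gene, not normalized, and of FPKM values (counts per length and library total) for each library. The submitters' processing notes name fastp, HISAT, StringTie, Cufflinks, featureCounts and the build GRCm39. Their versions, the annotation and whether counting used strand were not given in the sources used here.

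Counts were tested with edgeR 4.0.16 (R 4.3.3, glmQLFit and glmQLFTest, TMM scaling) on all genes kept by filterByExpr (minimum count 10, minimum total 15), with Benjamini-Hochberg adjustment over all of them and a threshold of 0.05. Hkdc1 stayed in each fit and out of the counts of genes. The SE is the log2 fold change divided by the square root of F. The fit was tested on simulated data. The genotype field set the groups, and the titles and the 4 libraries whose labels agree gave further readings. Libraries were numbered in accession order, which pairs nothing. Depth limits precision for genes near 1 CPM, and 3 counts correspond to 0.156 to 0.194 CPM. Near-identical copies and the 12 members that overlap another gene are uncertain.

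Alternatives were other scalings and filters, DESeq2 1.42.0, limma 3.58.1 (voom, or trend on log2(FPKM + 1) and log2(FPKM + 0.1)) and leaving out each library. Named genes were all members, in depth Mki67, Top2a, Ccnd1, Mcm2 to Mcm7, Ccnb1, Cdk1, Haus8, members past the threshold and the 3 of lowest unadjusted p per class and reading. From the other cell cycle lists the genes past the threshold or the 2 of lowest p per reading could be named. Genes outside these rules (Afmid, Myo9b, LTO1, Ints8 and Rccd1) were named after their values were seen, as genes that overlap members. The members and lists were chosen with earlier results of these data known. Promoters come from RefSeq.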

Additional observations from a re-analysis of the deposited data

How the results depend on the processing

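Groups of 3 and 2 libraries, a contradiction between labels and low counts of most mitotic genes limit these results. No paired analysis was possible because the replicate numbers only follow accession order. Of the values for single members under the alternatives, 827 kept their direction and side of the threshold, 21 passed it newly, 6 no longer passed it and 3 turned. The 3 were all Mcm7, whose log2 fold change without 1 library ran from -0.090 to 0.053 by the genotype field (above 0 without flox 1 and without LKO 1) and from -0.12 to 0.0017 by the agreeing labels (above 0 without LKO 2). The cause was not tested for any of these changes.

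By the genotype field, where edgeR called 0 genes and 0 members, DESeq2 called 35 genes and 1 member, and limma on either FPKM scale called 1 gene. On log2(FPKM + 1), a scale that understates changes of low genes, the medians were -0.22 (S phase) and -0.32 (G2/M), with a difference of -0.10. By the titles edgeR called 51 genes and 1 member. The alternatives gave 247 genes and 2 members with no filter, 25 genes at a mean of 1 CPM, 629 genes and 2 members with DESeq2, 24 genes with limma-voom and 30 genes on log2(FPKM + 1), where the medians were -0.18 (S phase) and -0.16 (G2/M) and the difference turned to 0.02. Leaving out 1 library gave 0 to 238 genes, 0 to 1 members and S phase medians of -0.41 to -0.13. In the 4 libraries whose labels agree edgeR called 91 genes and 1 member. The alternatives gave 57 genes with upper-quartile factors, 1108 genes and 7 members with no filter, 733 genes and 5 members with DESeq2, 44 genes with limma-voom and 0 members on log2(FPKM + 1). The S phase median was -0.71 with library size alone, -0.46 at a mean of 1 CPM and -0.25 on log2(FPKM + 1), where the G2/M median was -0.34 and the difference -0.10. Leaving out 1 library gave 0 to 759 genes, 0 to 7 members, S phase medians of -0.61 to -0.40, G2/M medians of -1.45 to -0.69 and differences of -0.96 to -0.073. There the lone library of an arm is assumed to vary like the others.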
